A study of Homo sapiens with 6 samples.

Results

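RNA-seq of the human breast cancer line labelled MDA-MB-453 was used to measure the mRNA levels of 10 genes that write or erase a methyl group on the N6 position of adenine. The members were taken from a list of symbols: ALKBH1, METTL4, METTL3, METTL14, WTAP, VIRMA, ZC3H13, METTL16, FTO and ALKBH5. All 10 were found among the 62438 genes of the count table, and all 10 passed the filter on low counts. N6AMT1, the methyltransferase that the study targeted, is not among them. The si-N6AMT1 group holds 3 libraries from cells that received siRNA targeting N6AMT1 at 10 nM, and the si-CN group holds 3 from cells given scrambled siRNA at the same dose, both with RNAiMAX and harvested after 48 h. The labels describe triplicate cells in each group and do not say whether these were separate cultures, so p-values measure the spread between these libraries, which may be technical. Only 1 cell line was used, and the sources used here do not give the siRNA sequence. The question for these genes was whether the other adenine N6 methylation enzymes changed when N6AMT1 was silenced.

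A methyl group on the N6 of adenine is known from both DNA (6mA) and RNA (m6A). In messenger RNA, m6A is written in the nucleus by METTL3, the catalytic subunit, in a heterodimer with METTL14, which helps to bind the RNA. A larger set of adaptor proteins, among them WTAP, VIRMA and ZC3H13, holds this heterodimer in nuclear speckles and directs it to its sites. FTO and ALKBH5, both iron-dependent dioxygenases of the AlkB family, remove the mark, and proteins with a YTH domain read it and steer splicing, translation and decay of the RNA. In mammalian DNA, N6AMT1 and METTL4 have been proposed as writers of 6mA and ALKBH1 as its eraser. These assignments are debated, since N6AMT1 also methylates the translation release factor ETF1, METTL4 methylates small nuclear RNA, and ALKBH1 demethylates transfer RNA.

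The libraries held 19739247 to 21289740 counts, and the members had between 318 and 3128 counts in any library. Within a group, the chi-square of a library pair divided by its degrees of freedom was 1.37 to 1.77, above sampling noise alone. The common coefficient of variation between libraries beyond counting noise, by edgeR, was 1.85%. Neither value shows whether the libraries came from separate cultures. All 6 libraries were kept as replicates. N6AMT1 had 60 to 72 counts in si-N6AMT1 and 135 to 141 in si-CN libraries. By the quasi-likelihood test of edgeR its log2 fold change was -1.10 with a standard error (SE) of 0.119 (FDR = 3.65e-07), so the targeted gene fits the labels. Counts scaled to library size (CPM) used the TMM factors of edgeR, and a gene was called when its Benjamini-Hochberg adjusted p (FDR) over 17320 tested genes was under 0.05. In bulk RNA, fewer cells of a type and less RNA per cell cannot be told apart. The label of the line was checked against its markers. Luminal keratins KRT8 and KRT18 and the epithelial gene EPCAM ran from 413 to 815 TPM, but GATA3 and FOXA1, transcription factors of luminal breast cells, had at most 2.63 and 5.70 TPM. ERBB2 had 25.2 to 26.7 TPM. Basal keratins KRT5 and KRT14, not a mark of this line, had 757 to 826 and 143 to 173 TPM. Of other genes listed at or near 0 in this line, ESR1, PGR and PTPRC had at most 0.268, 0.0174 and 0.0637 TPM. COL1A1, also listed there, had 16.5 to 17.8 TPM. Low GATA3 and FOXA1, high KRT5 and KRT14 and the level of COL1A1 go against the label. KRT8, KRT18, EPCAM, ESR1, PGR and PTPRC do not. ERBB2, listed as present in this line, was detected and was not counted on either side. The cells are therefore called labelled MDA-MB-453 here. The summed level of 6 markers of the line ran from 1957 to 1966 TPM in si-CN and from 2021 to 2031 TPM in si-N6AMT1 libraries, and that of 6 markers of other types or receptors from 924 to 943 and from 1004 to 1016 TPM, with none of these genes at 0 in all libraries. Most of the first sum came from KRT8, KRT18 and EPCAM, and most of the second from KRT5 and KRT14. The sums therefore mainly follow these genes and not each marker in turn. The part of the shift of these sums in the results below was not tested.

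Of the 10 members, 3 were downregulated and 1 was upregulated after N6AMT1 knockdown, whereas 6 did not pass the test. The RNA erasers FTO and ALKBH5 and the adaptor VIRMA were lower, and the adaptor WTAP was higher. Among all tested genes, 11.5% were downregulated and 9.78% upregulated, together 21.3%, which is the share against which 4 of 10 members stands. The median log2 fold change of the members was 0.0037, and that of all tested genes was 0.0039. Without regard to sign, the medians were 0.0895 for the members and 0.107 for all tested genes. All changes were small, from -0.31 (FTO) to 0.17 (WTAP) on the log2 scale, in a table where 0.935% of tested genes were called with a change of at least 1.5-fold. Libraries of the 2 groups did not overlap for 7 of the 10 members, 5 of them lower and 2 higher in si-N6AMT1, compared with 34.9% of tested genes in either direction, 18.0% lower and 16.8% higher. The shares called and not overlapping cover all tested genes, whose mean levels started at 0.323 CPM, whereas those of the members started at 17.8 CPM. Shares among genes of like level were not counted. For a gene whose libraries do not overlap, the exact two-sided permutation test gives p = 0.1, the smallest value that 3 libraries against 3 allow. The plot of each member's libraries shows which genes these are.

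**Figure D1:**
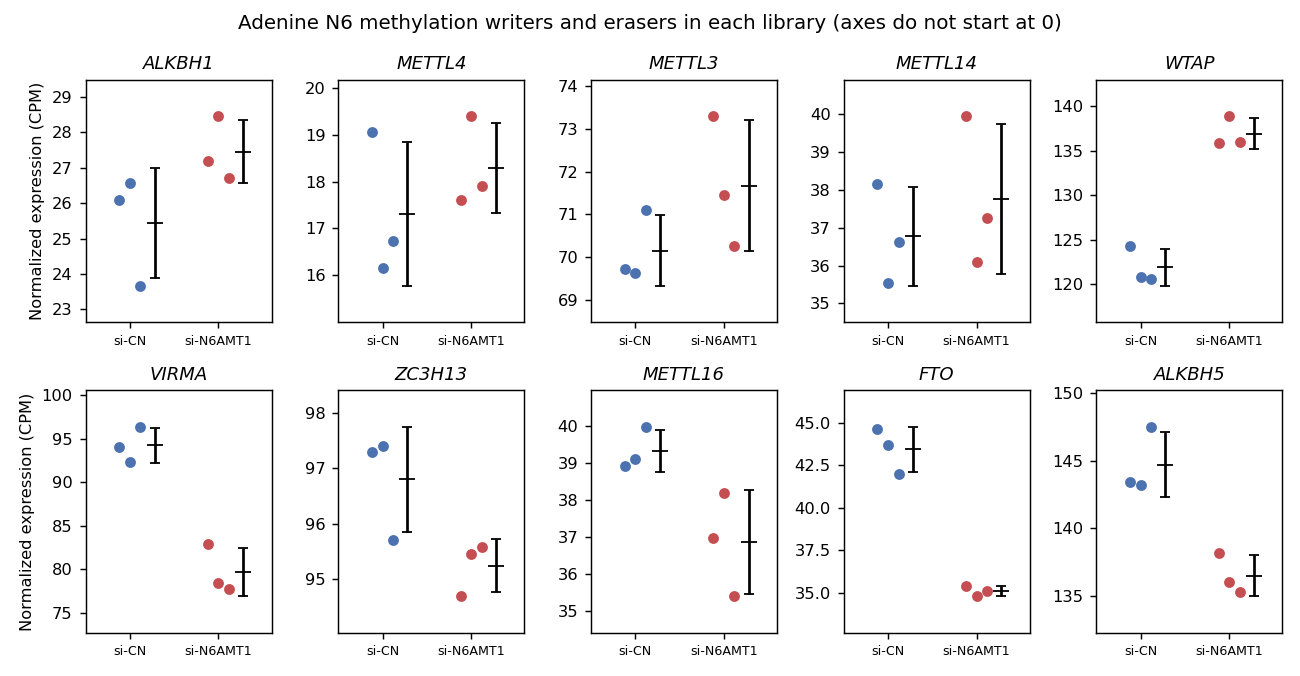
Normalized expression in CPM (vertical axes, not starting at 0) of each of the 10 members in the 3 si-CN libraries (blue) and the 3 si-N6AMT1 libraries (red), with the mean and SD of each group in black. The groups lie apart for ALKBH1, WTAP, VIRMA, ZC3H13, METTL16, FTO and ALKBH5, although for ZC3H13 the lowest si-CN library (95.7 CPM) and the highest si-N6AMT1 library (95.6 CPM) are almost level.

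The 2 candidates for DNA were not called. ALKBH1 (ENSG00000100601, minus strand of chromosome 14, 78138747 to 78174366 in GRCh37), the proposed 6mA demethylase, had 27.2, 28.5 and 26.7 CPM in si-N6AMT1 replicates 1 to 3 and 26.1, 26.6 and 23.7 CPM in si-CN replicates 1 to 3. Every si-N6AMT1 library lay above every si-CN library, but the lowest of the former (26.7 CPM) and the highest of the latter (26.6 CPM) were close, and si-CN replicate 3 was below the other two. The log2 fold change was 0.11 (SE 0.0548), with a 95% interval from -0.0013 to 0.23, and an FDR of 0.163 by edgeR (unadjusted p = 0.0524). In percent, the interval ran from -0.0885% to 17.0%. Without si-CN replicate 3 the log2 fold change was 0.062 (edgeR, FDR = 0.545), and without si-CN replicate 2 it was 0.14, the ends of the range over single libraries omitted.

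METTL4 (ENSG00000101574, minus strand of chromosome 18, 2537524 to 2571508), a methyltransferase of the same MT-A70 family as METTL3, was the member with the fewest counts. Its values were 17.6, 19.4 and 17.9 CPM in si-N6AMT1 and 19.0, 16.1 and 16.7 CPM in si-CN libraries. The groups overlapped, with si-CN replicate 1 near the top of the range. The log2 fold change was 0.081 (SE 0.0706, 95% interval -0.065 to 0.23, FDR = 0.474 by edgeR), so at 318 to 396 counts per library a change between -4.41% and 17.1% was not resolved. With each library left out in turn, its log2 fold change ran from 0.035 without si-CN replicate 2 and 0.037 without si-N6AMT1 replicate 2 to 0.15 without si-CN replicate 1.

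The catalytic core of the RNA writer did not pass the test either, and its intervals were narrower. METTL3 (ENSG00000165819, minus strand of chromosome 14, 21966277 to 21979484) had 73.3, 71.5 and 70.3 CPM in si-N6AMT1 and 69.7, 69.6 and 71.1 CPM in si-CN libraries. The highest si-CN library lay above the lowest si-N6AMT1 library, and the log2 fold change of 0.030 (SE 0.0325, 95% interval -0.037 to 0.098, FDR = 0.574) was within the spread between replicates. METTL3 shares 388 exonic bases with TOX4 on the opposite strand, which had 1633 to 1901 counts per library. METTL14 (ENSG00000145388, plus strand of chromosome 4, 119606547 to 119636588) had 40.0, 36.1 and 37.3 CPM in si-N6AMT1 and 38.2, 35.5 and 36.6 CPM in si-CN libraries. Its groups overlapped over most of their range (log2 fold change 0.038, SE 0.0467, 95% interval -0.059 to 0.13, FDR = 0.634). The bounds of these intervals correspond to changes from -2.54% to 7.02% for METTL3 and from -4.01% to 9.79% for METTL14. Without si-N6AMT1 replicate 1, the log2 fold change of METTL3 was 0.015 and that of METTL14 was -0.0027, and without si-N6AMT1 replicate 2 or si-CN replicate 1 that of METTL14 was 0.069 or 0.064.

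Of the 3 adaptors, WTAP rose, VIRMA fell and ZC3H13 did not pass the test. WTAP (ENSG00000146457, plus strand of chromosome 6, 160146617 to 160177351), which binds the heterodimer and brings it to nuclear speckles, had 135.9, 138.9 and 136.0 CPM in si-N6AMT1 and 124.3, 120.8 and 120.7 CPM in si-CN libraries. All si-N6AMT1 libraries were higher, by a gap larger than the range within either group. WTAP rose by 12.3%, with a 95% interval from 8.18% to 16.7% (edgeR, log2 fold change 0.17 with a standard error of 0.0263, FDR = 5.0e-05). Its processed pseudogene WTAPP1 had at most 3 counts in any library.

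VIRMA (ENSG00000164944, minus strand of chromosome 8, 95499917 to 95565757), the largest subunit and the scaffold of the adaptors, was the member with the smallest FDR. It had 82.8, 78.4 and 77.7 CPM in si-N6AMT1 and 94.0, 92.4 and 96.4 CPM in si-CN libraries, with no overlap. VIRMA had a log2 fold change of -0.24 with a standard error of 0.0323 (edgeR, FDR = 5.89e-06), a change of -15.6% with a 95% interval from -19.4% to -11.5%. ZC3H13 (ENSG00000123200, minus strand of chromosome 13, 46528600 to 46626894), a zinc finger protein that anchors the complex in the nucleus, had 94.7, 95.5 and 95.6 CPM in si-N6AMT1 and 97.3, 97.4 and 95.7 CPM in si-CN libraries. Although the groups did not overlap, the difference was only -1.59% (log2 fold change -0.023, SE 0.0281, 95% interval -0.081 to 0.035, FDR = 0.628).

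METTL16 (ENSG00000127804, minus strand of chromosome 17, 2308856 to 2415185) works outside this complex and methylates U6 small nuclear RNA and hairpins of MAT2A mRNA. It had 37.0, 38.2 and 35.4 CPM in si-N6AMT1 and 38.9, 39.1 and 40.0 CPM in si-CN libraries. Every si-N6AMT1 library was lower, and the log2 fold change was -0.094 (SE 0.0431, 95% interval -0.18 to -0.0049). With an unadjusted p of 0.0397 and an FDR of 0.133 by edgeR, METTL16 was not called.

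Both RNA erasers were downregulated. FTO (ENSG00000140718, plus strand of chromosome 16, 53735604 to 54192424) had 35.4, 34.8 and 35.1 CPM in si-N6AMT1 and 44.6, 43.7 and 42.0 CPM in si-CN libraries. The si-N6AMT1 libraries lay close together and well below the lowest si-CN library. This was the largest change among the members, at -19.2% (log2 fold change -0.31, SE 0.0418, 95% interval -0.39 to -0.22, FDR = 8.59e-06 by edgeR).

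ALKBH5 (ENSG00000091542, plus strand of chromosome 17, 18086392 to 18113268) had 138.2, 136.0 and 135.3 CPM in si-N6AMT1 and 143.4, 143.2 and 147.5 CPM in si-CN libraries. All si-N6AMT1 libraries were lower, but the fall was small, at 5.70% (log2 fold change -0.085, SE 0.0257, 95% interval -0.14 to -0.031, FDR = 0.0204 by edgeR). This call was lost when si-CN replicate 3 (FDR = 0.125), si-N6AMT1 replicate 3 (FDR = 0.0827) or si-N6AMT1 replicate 2 (FDR = 0.0692) was left out, and under DESeq2 on the same genes (FDR = 0.0938), while the direction stayed. The calls of FTO, VIRMA and WTAP held without any single library.

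**Figure D2:**
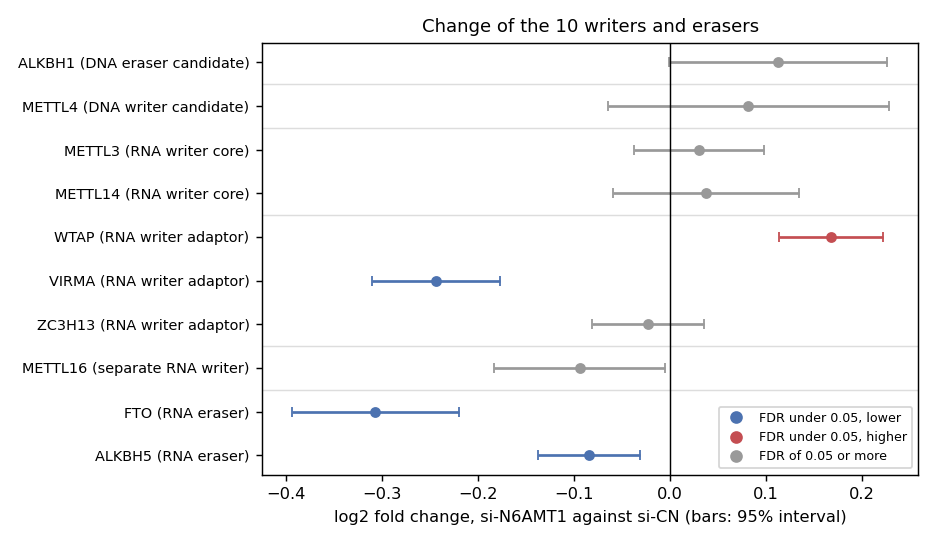
Log2 fold change of si-N6AMT1 against si-CN (horizontal axis) for each member, grouped by role, with 95% intervals as bars, from edgeR's quasi-likelihood test on 3 libraries a group. Blue points passed an FDR of 0.05 and were lower (VIRMA, FTO, ALKBH5), the red point passed and was higher (WTAP), and grey points did not pass.

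In earlier work on these libraries, the 7-base sequences TTCACAT and TCACATA, which overlap by 6 bases, were picked because genes holding them in the 3′ UTR had lower expression in si-N6AMT1, so their presence among the members is a description and not a test. The 3′ UTR of each gene's reference transcript was searched on the strand of the mRNA. A site was found in 2 of the 10 members, compared with 22.2% of 13301 tested protein-coding genes. These 2 sites are shown with 10 bases on either side, in lower case, and with the matching bases in capitals, because they lie in a member that fell and in a member that did not.
FTO, chr16:54147672-54147699 (GRCh37, plus strand): attgggagatTTCACATAaaattaaaag
METTL4, chr18:2538596-2538622 (GRCh37, minus strand): atggggctatTTCACATtaaagtccag
The site in FTO joins both sequences into 8 bases and begins at position 1855 of a 3′ UTR of 10026 bases, the longest among the members. That of METTL4 holds TTCACAT alone and begins at position 387 of 1470 bases. FTO had a log2 fold change of -0.31, whereas METTL4 had 0.081 and was not called. VIRMA and ALKBH5, the other downregulated members, had no site in 3′ UTRs of 1017 and 1558 bases. WTAP, which rose, had none in 708 bases. Upstream of the 3′ UTR, in the remaining transcript, TTCACAT or TCACATA occurred in METTL3, METTL4 and ZC3H13, which were not called. These are 30% of the members, beside 11.5% of tested protein-coding genes. The targeted gene N6AMT1 held 1 such sequence in its 667 bases there, and none in its 3′ UTR of 4174 bases. Of the 30 pathway genes described below, 7 held a 3′ UTR site (23.3%), of which CBLL1 was downregulated and the others were not called.

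Per length, the members spanned a wide range of levels. To compare genes, counts were divided by the length of the reference transcript and scaled to TPM. In si-CN, WTAP had 128.9 ± 0.645 TPM (SD, n = 3), ALKBH5 101.9 ± 2.55 TPM and METTL3 78.8 ± 1.62 TPM. After these came VIRMA (32.4 ± 0.848 TPM), ZC3H13 (26.8 ± 0.296 TPM), ALKBH1 (21.8 ± 1.25 TPM) and METTL16 (15.2 ± 0.370 TPM). The lowest levels were those of METTL14 (12.3 ± 0.314 TPM), METTL4 (10.4 ± 0.800 TPM) and FTO (8.35 ± 0.182 TPM). No 2 neighbours in this order overlapped between si-CN libraries. WTAP stood above 90.6% and FTO above 31.4% of tested protein-coding genes. The order rests on the length chosen, since the deposited values hold no lengths per library. With the longest transcript of each gene in its place, ALKBH5 (129.3 TPM) stood above WTAP (94.1 TPM), and FTO (10.6 TPM) above METTL4 (9.41 TPM). The other members kept their places. For ALKBH1, METTL14, VIRMA, ZC3H13, METTL16, FTO and ALKBH5 this setting only rescaled all values by a common factor. Their order among themselves was therefore fixed in advance, and shorter transcripts were not tried.

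**Figure D3:**
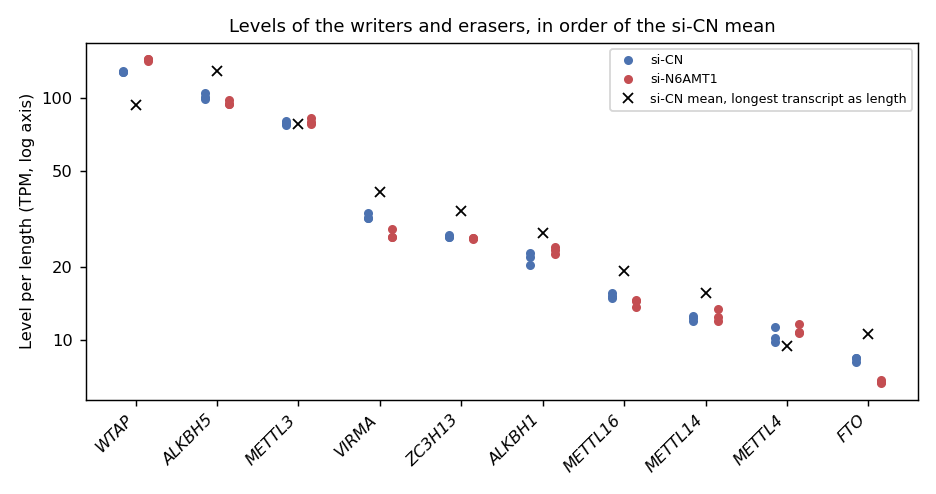
Levels per length in TPM (vertical log axis) of the 10 members in si-CN (blue) and si-N6AMT1 (red) libraries, ordered by the si-CN mean, with crosses for the si-CN mean when the longest transcript is used as the length. WTAP, ALKBH5 and METTL3 stand well above the other members in every library, and FTO is the lowest with the reference transcript as the length.

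METTL3 mRNA exceeded that of its partner METTL14 by a ratio in TPM of 6.40 ± 0.238 (SD, n = 3) in si-CN and 6.37 ± 0.247 in si-N6AMT1 libraries, and these ranges overlapped. The ratio of METTL3 to WTAP was 0.612 ± 0.0151 in si-CN and 0.556 ± 0.0147 in si-N6AMT1, with no overlap between groups. For the erasers, the ratio of FTO to ALKBH5 was 0.0820 ± 0.00375 in si-CN and 0.0702 ± 0.000592 in si-N6AMT1 libraries, also without overlap. For the DNA candidates, the ratio of ALKBH1 to METTL4 was 2.09 ± 0.210 and 2.13 ± 0.0557, and the groups overlapped. These ratios are descriptions of transcript levels, and no test was run on them. They rest on the reference transcript lengths, and their SD covers only the spread between libraries. With the longest transcript as the length, si-CN means were 78.5 TPM for METTL3, 15.6 for METTL14 and 94.1 for WTAP. Those of ALKBH1 and METTL4 were 27.6 and 9.41 TPM, so the sizes of ratios with these genes depend on the length chosen.

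The tested protein-coding genes whose deviations over the 6 libraries were most like those of VIRMA were H6PD, RFX7 and STIL. Likeness was the Euclidean distance between deviations of log2 CPM from each gene's own mean, among 9726 genes with at least 10 CPM. The distances were 0.0385, 0.0413 and 0.0413, where the median gene had 0.327. H6PD, RFX7 and STIL had log2 fold changes of -0.24, -0.21 and -0.26, beside -0.24 for VIRMA. Since likeness was taken over the libraries of both groups, similar fold changes follow from the selection and are not a separate result.

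Other genes of the pathway were read from lists written from general knowledge. All 30 were tested, of which 3 were downregulated, 6 were upregulated and 21 did not pass, with a median log2 fold change of -0.012. This stands beside 11.5% and 9.78% of all tested genes.

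Among the remaining subunits of the m6A writer complex, CBLL1, a RING finger protein also named HAKAI, was downregulated, from 62.0 ± 0.894 CPM (SD, n = 3) in si-CN to 57.3 ± 1.06 CPM in si-N6AMT1 (log2 fold change -0.11, FDR = 0.0208 by edgeR). The RNA-binding subunits RBM15 and RBM15B were not called, with log2 fold changes of -0.14 and -0.060. Of the other adenine N6 methyltransferases of RNA, METTL5, which methylates ribosomal RNA of the small subunit, was upregulated, from 24.7 ± 0.252 to 29.8 ± 2.06 CPM (log2 fold change 0.27, SE 0.0546, FDR = 0.000793). TRMT112, the small activating partner that METTL5 shares with N6AMT1, was also higher, with 97.6 ± 2.08 CPM where si-CN had 88.8 ± 1.69 CPM (log2 fold change 0.13, FDR = 0.00198). ZCCHC4, which methylates ribosomal RNA of the large subunit, had a log2 fold change of -0.014, and PCIF1, which methylates the adenosine next to the cap, had 0.10, and neither was called.

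Among the 5 YTH domain readers, YTHDC2 was downregulated, from 63.7 ± 1.16 to 56.3 ± 1.70 CPM (log2 fold change -0.18, SE 0.0358, FDR = 0.000739), and YTHDF1 was upregulated, from 124.1 ± 3.81 to 131.4 ± 2.20 CPM (log2 fold change 0.082, FDR = 0.0393). YTHDF2, YTHDF3 and YTHDC1 were not called, with log2 fold changes between -0.078 and 0.020. Of 9 other proposed m6A binding proteins, IGF2BP3 was upregulated (log2 fold change 0.17, SE 0.0336, FDR = 0.000569) and HNRNPC was downregulated (log2 fold change -0.10, SE 0.0202, FDR = 0.000686), and 7 did not pass. IGF2BP3 binds and stabilizes mRNAs, and HNRNPC is an abundant nuclear RNA-binding protein.

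Of the 6 other AlkB dioxygenases, ALKBH6 was upregulated, from 12.1 ± 0.360 to 14.3 ± 0.605 CPM (log2 fold change 0.24, SE 0.0722, FDR = 0.0171), and 5 did not pass. MAT2A, which makes S-adenosylmethionine, the methyl donor of all these writers, and whose mRNA METTL16 methylates, was upregulated, from 99.7 ± 3.61 to 109.5 ± 2.96 CPM (log2 fold change 0.14, SE 0.0314, FDR = 0.00291). Its regulatory partner MAT2B and AHCY, which clears the product S-adenosylhomocysteine, were not called, with log2 fold changes of -0.037 and -0.042. The calls of CBLL1, YTHDF1 and ALKBH6 were lost under some alternatives, while their directions stayed. With each library left out in turn, their log2 fold changes ran from -0.13 to -0.10, from 0.061 to 0.10 and from 0.21 to 0.28. CBLL1 was lost without si-N6AMT1 replicate 1 (FDR = 0.0673), si-N6AMT1 replicate 3 (FDR = 0.0739) or si-CN replicate 3 (FDR = 0.0974), and ALKBH6 without si-N6AMT1 replicate 3 (FDR = 0.0786) or si-CN replicate 2 (FDR = 0.0685). YTHDF1 was lost when any library other than si-CN replicate 2 was left out, with FDR between 0.0527 and 0.183. DESeq2 on the same genes called none of these 3 (FDR = 0.123, 0.138 and 0.0999 for CBLL1, YTHDF1 and ALKBH6).

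**Figure D4:**
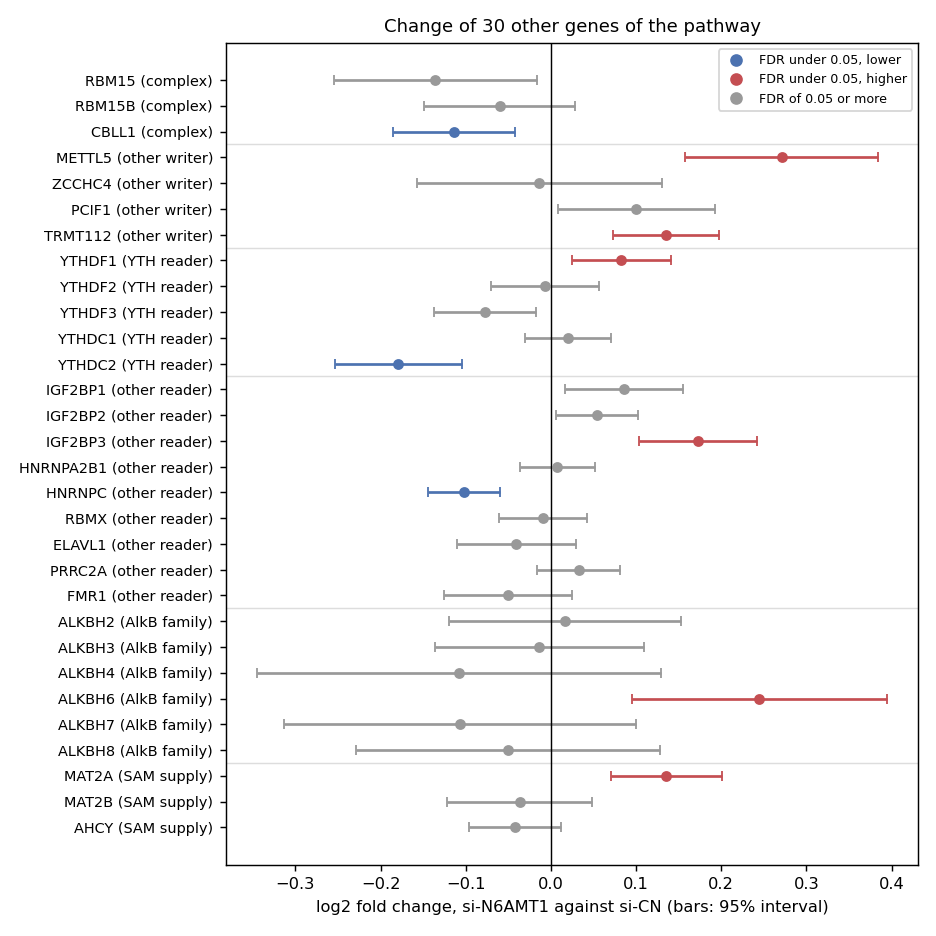
Log2 fold change of si-N6AMT1 against si-CN (horizontal axis) for 30 other genes of the pathway, in the order of their lists, with 95% intervals as bars from edgeR's quasi-likelihood test on 3 libraries a group. Blue points passed an FDR of 0.05 and were lower (CBLL1, YTHDC2, HNRNPC), red points passed and were higher (METTL5, TRMT112, YTHDF1, IGF2BP3, ALKBH6, MAT2A), and the 21 grey points did not pass.

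Mitochondrial genes took 3.64% to 3.86% of counts in si-CN and 2.91% to 3.11% in si-N6AMT1 libraries. With these genes left out of library sizes, the same 3 members were downregulated and the same 1 upregulated.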

How the data were processed

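Total RNA from triplicate cells of each group was made into 6 stranded mRNA libraries. The authors trimmed reads with Trim Galore, ran kallisto v0.46.0 against GENCODE transcripts on hg19 to estimate counts, and summed them per gene. The deposited values are these estimated counts (expected counts) in whole numbers, without normalization. The strand option of kallisto is not given in the sources used here, so genes overlapping on opposite strands may share counts.

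Groups and replicate numbers came from the sample titles, and all 6 columns were matched by name. Identifiers were matched to symbols, positions, transcripts and lengths in GENCODE v44 on GRCh37 (62149 of 62438). PECAM1 was on the marker list and could not be matched, and 1 other marker is not reported here. Genes were filtered by edgeR v4.0.16 (minimum count 10) in R v4.3.3, scaled by TMM, and tested by the quasi-likelihood test over all 6 libraries with no covariate. The SE of a log2 fold change was its size over the square root of F. The study used DESeq2, which was an alternative here (v1.42.0), as were limma-voom (v3.58.1), RLE size factors, library totals without TMM, mitochondrial genes left out, no filter, a replicate block with and without GC correction (loess, span 0.3), and each library left out. The procedure was tested on simulated counts, but no outcome is given here, so this is no support for the calls.

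All 10 members were named. Among pathway genes those called and the smallest p in each list were to be named, and other members of a list beside them were named after their values were seen. The members, lists and sequences searched were chosen with earlier results of these data known. 6mA data were not analysed here.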

Additional observations from a re-analysis of the deposited data

How the results depend on the processing

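Across 15 alternatives, WTAP, VIRMA and FTO kept their direction and call, with log2 fold changes from 0.16 to 0.18, from -0.27 to -0.22 and from -0.33 to -0.29 and FDR of at most 0.000826, 0.000143 and 0.000101. N6AMT1 stayed between -1.18 and -1.04. ALKBH5 lost its call under 6 of the 15 (FDR up to 0.125), among them library totals without TMM (FDR = 0.0511) and DESeq2, which left 2 downregulated members. The 6 members that were not called were not called under any alternative, and METTL14 ranged from -0.0027 to 0.069. Counts of pathway genes ran from 2 to 3 downregulated and from 4 to 8 upregulated. DESeq2 called 1275 genes down and 955 up on the same genes, and 1240 and 930 on genes with at least 1 TPM. By edgeR there were 1993 and 1694. DESeq2 gave an adjusted p to 11947 of the 17320 genes, and to 12143 of the 17604 with at least 1 TPM. As edgeR adjusted over all 17320, the counts are not over the same set. The cause of the difference was not tested. With each library left out, the counts ran from 1540 to 1818 down and from 1295 to 1523 up.

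Same-numbered libraries of the 2 groups did not deviate together (correlations of -0.118, -0.0823 and 0.0033 over 10121 genes, replicates 1 to 3), and no library correlated best with its own number, so the replicate number was not taken as a pairing. With the replicate block, 3 members were downregulated and 1 upregulated, as without it, 3 pathway genes were downregulated and 5 upregulated (YTHDF1 at FDR = 0.0562), and 1804 genes were downregulated and 1522 upregulated. With GC correction beside the block, these were 3 and 1 members, 3 and 4 pathway genes (RBM15 in place of CBLL1), and 1820 and 1271 genes.

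METTL4 (318 to 396 counts) and ALKBH1 (502 to 581 counts) had the lowest counts and the widest intervals among the members, and the part of depth in this was not tested.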
